A study of Mus musculus with 8 samples.

Results

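The sarcoplasmic reticulum calcium cycling genes described here are 10 genes taken by name from the deposited table of 13677 genes: Atp2a2, Pln, Sln, Ryr2, Trdn, Casq2, Casq1, Jph2, Slc8a1 and Camk2d. The list names genes of a shared function and its rule uses no measured value, but it was chosen with earlier results of these data known. All 10 are in the table. All 10 also passed the filter on low values, which asked for a signal of at least 1 in at least 2 libraries. The study sequenced poly(A) RNA of mouse ventricles, 8 libraries in all, to compare Vhl-deficient tissue with wild-type tissue in a Wt1-Cre mouse model. Vhl encodes the von Hippel-Lindau protein, a ubiquitin ligase subunit whose loss stabilises hypoxia-inducible factors, and Wt1 is known as a gene of the epicardium, the outer layer of the heart. The libraries are labelled DKO (n = 3), KO (n = 2, replicates 1 and 3) and C (n = 3); the labels do not spell out these abbreviations, the second change in DKO, or the animals' age, and they give no treatment in any group. They also do not say whether each library is its own animal, and the spread behind each p-value may therefore be technical.

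With each heartbeat, calcium that enters a cardiomyocyte through surface channels opens ryanodine receptors, and the sarcoplasmic reticulum releases its store onto the myofilaments. Relaxation follows when the pump SERCA returns calcium to the reticulum, under the brake of phospholamban and sarcolipin, and when the sodium-calcium exchanger expels the rest. Calsequestrin buffers the stored calcium, triadin ties it to the release channel, junctophilin holds the reticulum against the surface membrane, and the kinase CaMKII phosphorylates both the brake and the channel.

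The libraries held 15028176 to 21202385 reads, and levels are given as the deposited signal, which is reads plus 0.5 in proportion to a scaled library size, on the scale of CPM. Vhl itself had a signal of 8.61 to 11.2 in the DKO libraries, 8.33 and 8.96 in the KO libraries and 7.26 to 8.97 in the C libraries (limma adjusted p 0.461 to 0.708 over the 3 comparisons), so its summed level does not tell the labels apart; a gene sum need not show a deleted exon or a loss in few cells. The 9 ventricular cardiomyocyte markers were abundant in every library, with a summed signal of 36319 to 59980 in DKO, 36586 and 41024 in KO and 60239 to 63394 in C. Mitochondrial transcripts took 22.9% to 41.6% of the reads in DKO, 16.2% and 17.4% in KO and 23.1% to 29.0% in C. DKO replicate 2 stood apart, with 41.6% mitochondrial reads, 51.5% of its reads in 10 genes and the lowest level of 8 of the 10 calcium cycling genes; the exceptions were Sln, lowest in DKO replicate 3, and Camk2d, lowest in C replicate 1. In bulk tissue, fewer cells of a type and less RNA per cell cannot be told apart.

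Of the 10 genes, Casq1, which encodes the calsequestrin of skeletal muscle, differed most between the groups. It was lowest in DKO, highest in KO and in between in C, with no overlap between any of the 3 groups. Camk2d, which encodes the main CaMKII kinase of the heart, was also higher in KO than in DKO and C. The genes of the pump, its brake and the release channel (Atp2a2, Pln and Ryr2) passed the threshold in no comparison under the deposited scaling. Between DKO and C no gene of the 10 passed the threshold of an adjusted p under 0.05 (limma, Benjamini-Hochberg over the 13544 genes tested).

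The 250 bases before the RefSeq start (GRCm38.p6) were read on the gene's own strand, 5′ to 3′, for Casq1 and Camk2d, which passed the threshold, for Casq2, the cardiac paralog of Casq1, and for Pln, the most abundant gene per length. Capitals mark matches on either strand to ACGTG and GCGTG, the core letters that hypoxia-inducible factors are known to bind, to TATAAA, and to the MEF2 motif. The regions are chr1:172219896-172220145 on the minus strand for Casq1, chr3:126596701-126596950 on the plus strand for Camk2d, chr3:102086165-102086414 on the plus strand for Casq2 and chr10:53337436-53337685 on the plus strand for Pln.
Casq1: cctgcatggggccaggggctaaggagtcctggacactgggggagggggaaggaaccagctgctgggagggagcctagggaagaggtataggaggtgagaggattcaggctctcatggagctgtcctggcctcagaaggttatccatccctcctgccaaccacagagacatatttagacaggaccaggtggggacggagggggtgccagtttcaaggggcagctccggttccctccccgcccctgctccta
Camk2d: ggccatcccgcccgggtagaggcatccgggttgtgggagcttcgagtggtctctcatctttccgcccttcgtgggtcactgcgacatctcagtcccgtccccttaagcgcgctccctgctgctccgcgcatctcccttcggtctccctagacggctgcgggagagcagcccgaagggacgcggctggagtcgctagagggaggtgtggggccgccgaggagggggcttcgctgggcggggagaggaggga
Casq2: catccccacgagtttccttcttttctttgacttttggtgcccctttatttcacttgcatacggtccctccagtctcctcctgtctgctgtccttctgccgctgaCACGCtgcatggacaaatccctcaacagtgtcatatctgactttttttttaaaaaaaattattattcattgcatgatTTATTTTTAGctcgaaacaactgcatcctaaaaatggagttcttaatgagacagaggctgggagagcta
Pln: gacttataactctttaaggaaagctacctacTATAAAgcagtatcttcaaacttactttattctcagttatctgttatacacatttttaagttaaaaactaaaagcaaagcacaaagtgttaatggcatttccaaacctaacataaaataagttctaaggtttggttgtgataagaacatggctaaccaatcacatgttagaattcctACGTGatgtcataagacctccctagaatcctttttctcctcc

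A promoter entry was matched for 7 of the 10 genes, all but Atp2a2, Sln and Trdn. Jph2 had 2 overlapping windows, so the counts here are of genes, while the percentages are of windows. ACGTG stood in the windows of 2 of the 7 genes, against 16.6% of all 32851 promoter windows of the same length. It lay 42 bases before the start in Pln and 244 bases before the start in Ryr2. GCGTG stood in 3 of 7 (Casq2 at 146 bases, Ryr2 at 73 bases and Slc8a1 at 243 bases before the start), against 28.2% of all windows. The E-box CANNTG, which can overlap ACGTG, stood in 6 of 7, all but Camk2d, against 66.2%, the MEF2 motif in Casq2 alone, 69 bases before the start, against 2.92%, and TATAAA in Pln alone, 219 bases before the start, against 12.4%. The windows of Casq1 and Camk2d held no match to the hypoxia core letters, to MEF2 or to TATAAA. The Camk2d window precedes a RefSeq start that lies inside the gene as GENCODE places it (start 126596302). It therefore does not cover the bases before the GENCODE start. The Pln window, which ends at 53337685, runs past the GENCODE start of Pln (53337667) and covers bases on both sides of it. A Jph2 window, 163397974 to 163398223 on the minus strand, likewise reaches into the gene, which GENCODE ends at 163397993. All motif matches given here are matches of letters in a window and say nothing of binding.

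Per kilobase of the longest annotated transcript, the mean signal over the 8 libraries was 1084 for Pln and 789 for Atp2a2, followed by 159 for Casq2 and 83.3 for Jph2. Trdn had 31.9 per kilobase, Ryr2 24.7, Casq1 15.4, Camk2d 10.7, Slc8a1 5.21 and Sln 2.41. The brake and the pump thus stood above all others of the 10, and in the 3 groups their means per kilobase were 1065 ± 266 and 738 ± 207 in DKO (SD, n = 3), 1031 ± 51.4 and 839 ± 140 in KO (SD, n = 2) and 1140 ± 78.9 and 806 ± 36.8 in C (SD, n = 3), for Pln and Atp2a2 in that order. By raw signal, Atp2a2 ranked 26th and Pln 36th of the 13677 genes, and Sln ranked 10897th.

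**Figure D1:**
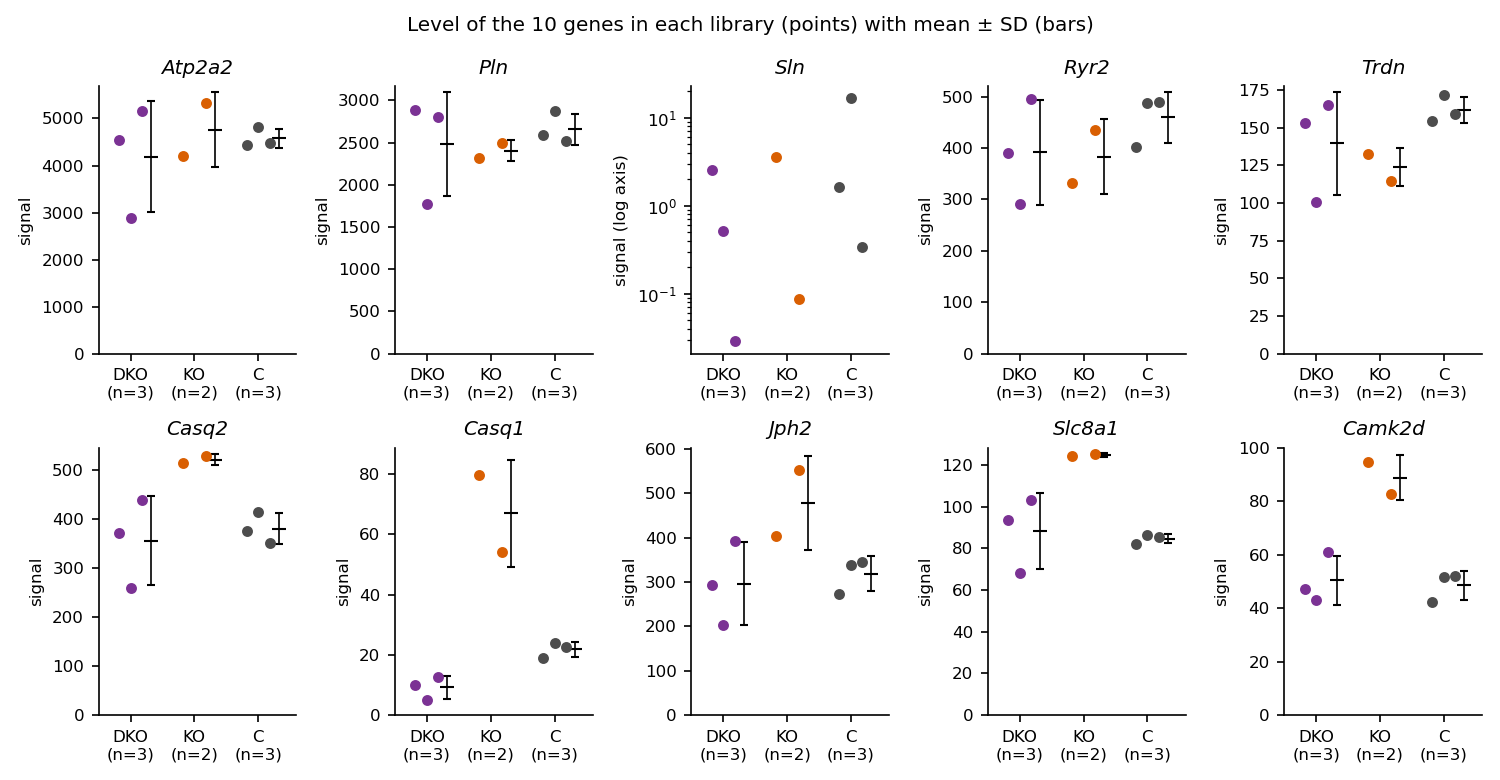
Deposited signal of each of the 10 genes by library (points), with mean ± SD (bars), for DKO, KO and C; the axis of Sln is logarithmic and has no mean, the others start at 0. Casq1 lay between 5.14 and 12.5 in DKO, at 79.6 and 54.3 in KO and between 19.1 and 24.0 in C, and the 3 groups of Atp2a2 overlapped.

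Atp2a2 (ENSMUSG00000029467, chromosome 5, 122453513 to 122502225 on GRCm38) encodes SERCA2, the pump that refills the reticulum. Its signal was 4535, 2880 and 5152 in the DKO libraries, 4200 and 5325 in the KO libraries and 4433, 4814 and 4477 in the C libraries. The lowest value was that of DKO replicate 2, the C libraries lay inside the range of KO, and all groups overlapped. The log2 fold change was 0.05 ± 0.35 (SE) for KO versus C, -0.17 ± 0.31 for DKO versus C and -0.22 ± 0.35 for DKO versus KO, with limma adjusted p-values of 0.944, 0.900 and 0.718. Under quantile normalisation, which gives every library the same distribution of values, Atp2a2 passed the threshold, with a log2 fold change of 1.19 for KO versus C (limma adjusted p = 0.00578) and -1.11 for DKO versus KO (limma adjusted p = 0.00881); the other settings tried did not call it.

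Pln (ENSMUSG00000038583, chromosome 10, 53337667 to 53345987) encodes phospholamban, the small membrane protein that holds SERCA2 back until it is phosphorylated. Levels were 2882, 1770 and 2801 in DKO, 2321 and 2490 in KO and 2590, 2869 and 2522 in C. Both KO libraries lay just below the lowest C library, and DKO spanned both groups, its replicate 2 being the lowest of all. The log2 fold changes were -0.14 ± 0.30 for KO versus C, -0.13 ± 0.27 for DKO versus C and 0.01 ± 0.30 for DKO versus KO (SE, limma adjusted p = 0.794, 0.911 and 0.981). The ratio of Pln to Atp2a2 within a library, not corrected for length, was 0.636, 0.615 and 0.544 in DKO, 0.552 and 0.468 in KO and 0.584, 0.596 and 0.563 in C. It was a little lower in KO than in C without overlap, and DKO overlapped both. How often ratios of other gene pairs do not overlap was not computed, for this or any later ratio. Of the exon bases of Pln, 1644 of 2759 overlap Gm47644 on the opposite strand and 141 overlap Cep85l, also opposite; the strand setting of the counting is not given in the sources used here, and both partners are listed at low mean levels of 21.4 and 11.2.

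Sln (ENSMUSG00000042045, chromosome 9, 53850164 to 53854560) encodes sarcolipin, the SERCA inhibitor that in the mouse heart is known chiefly from the atria. It was close to the floor, with a signal of 2.55 (55 reads), 0.519 (5 reads) and 0.0288 (0 reads, where 0 allows up to 3) in DKO, 3.56 (90 reads) and 0.0867 (2 reads) in KO, and 1.62 (26 reads), 16.7 (277 reads) and 0.340 (5 reads) in C. Libraries of each group were high and low, and C replicate 2 was far above all others. The log2 fold changes on the log2(signal + 1) scale were -0.83 ± 0.91 for KO versus C, -1.16 ± 0.81 for DKO versus C and -0.33 ± 0.91 for DKO versus KO (SE), and limma gave adjusted p-values of 0.587 to 0.840. Without C replicate 2, the value for KO versus C was 0.25, and without KO replicate 3 it was 0.20, both of the opposite sign.

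Sln followed 2 markers of atrial cardiomyocytes from library to library. Myl7, the atrial regulatory myosin light chain, had a signal of 16.1, 6.37 and 0.374 in DKO, 26.6 and 0.988 in KO and 4.50, 57.2 and 1.02 in C. Myl4, the atrial essential light chain, had 21.9, 11.5 and 2.39 in DKO, 33.6 and 2.48 in KO and 9.40, 60.9 and 3.18 in C. Sln, Myl7 and Myl4 were all highest in C replicate 2, then in KO replicate 1 and DKO replicate 1, and all lowest in DKO replicate 3. Among 6627 named genes of at least median level, they were the 2 most like Sln (Pearson r = 0.93 each over the 8 libraries, which share their scaling and groups; Myl7 and Myl4 were also on the marker list). The summed signal of the 7 atrial markers in the table was 102.4 to 209.1 in DKO, 70.4 and 125.5 in KO and 90.6 to 221.7 in C; none of the 7 was higher and 2 (Stard10 and Kcnj3) were lower in KO than in C, against 6.9% and 7.01% of all tested genes. Among the atrial markers other than Myl7 and Myl4, Stard10, Kcnj3 and Kcnj5 were highest in DKO replicate 1 (80.2, 41.3 and 33.9). Dkk3 was highest in KO replicate 1 (20.1) and, like Sln, lowest in DKO replicate 3 (0.951). Nr2f1 was highest in DKO replicate 2 (3.63). None of these markers was highest in C replicate 2, where Sln was. The part of atrial tissue in the Sln values was not tested.

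**Figure D2:**
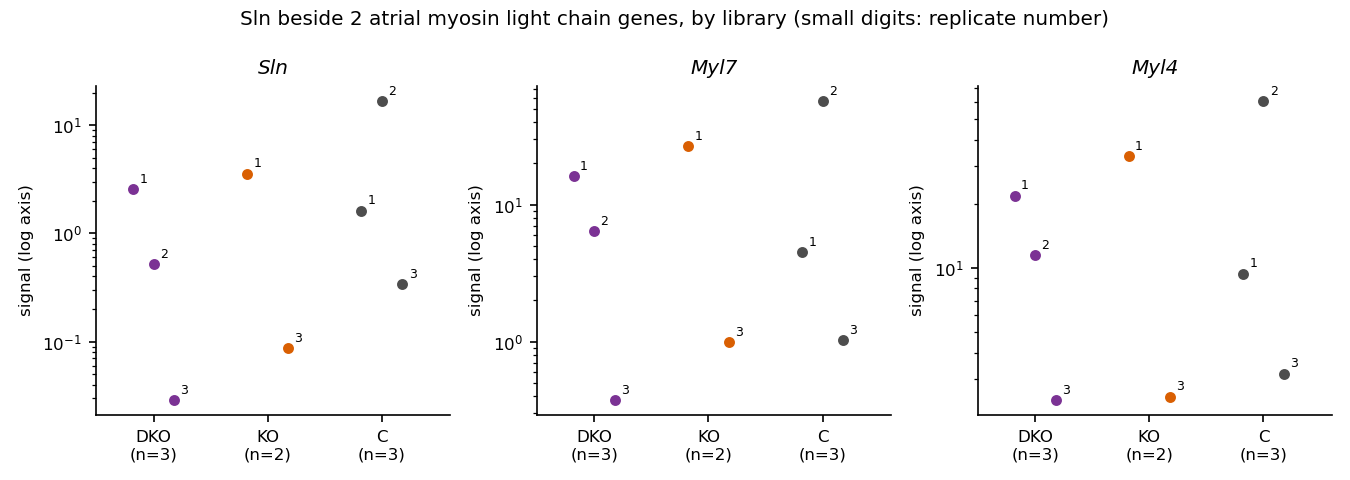
Signal of Sln, Myl7 and Myl4 by library on logarithmic axes, for DKO, KO and C, with the replicate number beside each point. In all 3 panels the highest point is C replicate 2 (16.7, 57.2 and 60.9) and the lowest is DKO replicate 3 (0.0288, 0.374 and 2.39).

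Ryr2 (ENSMUSG00000021313, chromosome 13, 11553102 to 12106945) encodes the release channel of the cardiac reticulum. Its signal was 389.7, 290.4 and 494.7 in DKO, 331.5 and 434.9 in KO and 401.2, 486.6 and 489.8 in C. Every pair of groups overlapped, with the lowest value in DKO replicate 2 and the highest in DKO replicate 3. The log2 fold changes were -0.27 ± 0.24 for KO versus C, -0.26 ± 0.22 for DKO versus C and 0.01 ± 0.24 for DKO versus KO (SE, limma adjusted p = 0.502, 0.744 and 0.981).

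Trdn (ENSMUSG00000019787, chromosome 10, 33080554 to 33476709) encodes triadin, which anchors calsequestrin to the release channel. Its signal was 153.5, 100.4 and 165.0 in DKO, 132.7 and 114.8 in KO and 154.8, 171.6 and 159.2 in C. Both KO libraries lay below all C libraries, and DKO overlapped both groups. The log2 fold change was -0.39 ± 0.21 for KO versus C (SE, limma adjusted p = 0.247), -0.24 ± 0.19 for DKO versus C (limma adjusted p = 0.725) and 0.14 ± 0.21 for DKO versus KO (limma adjusted p = 0.689).

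Casq2 (ENSMUSG00000027861, chromosome 3, 102086415 to 102146514) encodes cardiac calsequestrin, the main calcium buffer inside the reticulum of cardiomyocytes. Levels were 370.4, 259.1 and 437.7 in DKO, 513.4 and 528.9 in KO and 376.4, 413.6 and 350.8 in C. The 2 KO libraries lay close together above all others, and DKO and C overlapped. The log2 fold change was 0.46 ± 0.23 for KO versus C, -0.13 ± 0.20 for DKO versus C and -0.58 ± 0.23 for DKO versus KO (SE, limma adjusted p = 0.203, 0.879 and 0.114), so none passed the threshold. Casq2 and Trdn, whose proteins bind each other, stood in a ratio of Trdn to Casq2 within a library of 0.414, 0.387 and 0.377 in DKO, 0.259 and 0.217 in KO and 0.411, 0.415 and 0.454 in C. The ratio was lower in both KO libraries than in all others. Over 2 against 3 libraries the exact two-sided permutation test used here, which doubles the smaller tail, cannot go below p = 0.2. That is what it gave for this ratio in KO versus C and in DKO versus KO.

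Casq1 (ENSMUSG00000007122, chromosome 1, 172209894 to 172219868) encodes the calsequestrin that dominates in skeletal muscle and is a minor form in the heart. Casq1 had a signal of 9.95, 5.14 and 12.5 in DKO, 79.6 and 54.3 in KO and 19.1, 24.0 and 22.5 in C. Both KO libraries were above all C libraries, and all DKO libraries were below them. It was 2.93-fold higher in KO than in C, a log2 fold change of 1.55 ± 0.29 (SE, limma adjusted p = 0.00526). Between DKO and KO the log2 fold change was -2.78 ± 0.29 (SE, limma adjusted p = 0.000281), a level 6.89-fold lower in DKO. Between DKO and C it was -1.23 ± 0.26 (SE), 2.35-fold lower in DKO, with an unadjusted p of 0.000447 and a limma adjusted p of 0.151.

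The call for Casq1 in KO versus C ended without KO replicate 1, where the log2 fold change was 1.28 (limma adjusted p = 0.0660). The difference between DKO and C, not called by limma or by edgeR (adjusted p = 0.174), was called by DESeq2 (adjusted p = 0.00246) and by limma without DKO replicate 3 (adjusted p = 0.0324). The difference between DKO and KO was called in all 20 settings tried, with log2 fold changes of -3.41 to -2.46. Of the exon bases of Casq1, 156 of 1951 overlap an annotated antisense gene, Gm17224, that has no values of its own here.

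Casq1 took a changed part of the calsequestrin reads. Its share of Casq1 and Casq2 together, not corrected for length, was 2.62%, 1.95% and 2.78% in DKO, 13.4% and 9.31% in KO and 4.82%, 5.48% and 6.03% in C. The 3 groups did not overlap, and the means were 2.45% ± 0.443 in DKO (SD, n = 3), 11.4% ± 2.91 in KO (SD, n = 2) and 5.44% ± 0.606 in C (SD, n = 3). Cardiac Casq2 held the rest in every library, that is most of the reads in all 3 groups.

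In KO versus C, most other genes of skeletal muscle had the opposite direction to Casq1, while in DKO versus C they lay lower, as Casq1 did. Atp2a1, the pump of fast skeletal muscle and a paralog of Atp2a2, had a signal of 1.63, 3.07 and 0.720 in DKO, 0.138 and 0.191 in KO (3 and 5 reads) and 41.5, 11.6 and 81.3 in C. Ryr1, the skeletal release channel, had 0.299, 0.613 and 0.374 in DKO, 0.138 and 0.0520 in KO (3 reads and 1 read) and 4.81, 2.38 and 9.73 in C. Both genes were near the floor in the KO libraries, where Casq1 was highest.

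On the log2(signal + 1) scale, Atp2a1 fell by 4.92 in KO versus C (limma adjusted p = 0.000650) and by 3.74 in DKO versus C (limma adjusted p = 0.0143), and Ryr1 fell by 2.44 (limma adjusted p = 0.00228) and by 2.06 (limma adjusted p = 0.0373). Of the 11 skeletal muscle markers in the table, 9 were lower in KO than in C and none was higher, and 6 were lower in DKO than in C and none was higher, where 7.01% and 0.0812% of all tested genes were lower in the same comparisons. Myh4, a fast myosin heavy chain, had 0 reads in both KO libraries. Their summed signal was 51.7 to 78.0 in DKO, 104.9 and 125.3 in KO and 149.0 to 567.6 in C. Most of the sum in KO came from Mybpc2, a myosin-binding protein gene, which averaged 11.4 in DKO, 79.3 in KO and 33.9 in C. Its group means had the same order as those of Casq1. Mybpc2 was lower in DKO than in KO (log2 fold change -2.92, limma adjusted p = 0.00172), and its value of 1.21 for KO versus C did not pass (limma adjusted p = 0.0718). In KO, 9 of the 11 markers were thus lower than in C while Casq1 was higher. The part of skeletal muscle RNA in the C and DKO values of Casq1 was not tested.

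**Figure D3:**
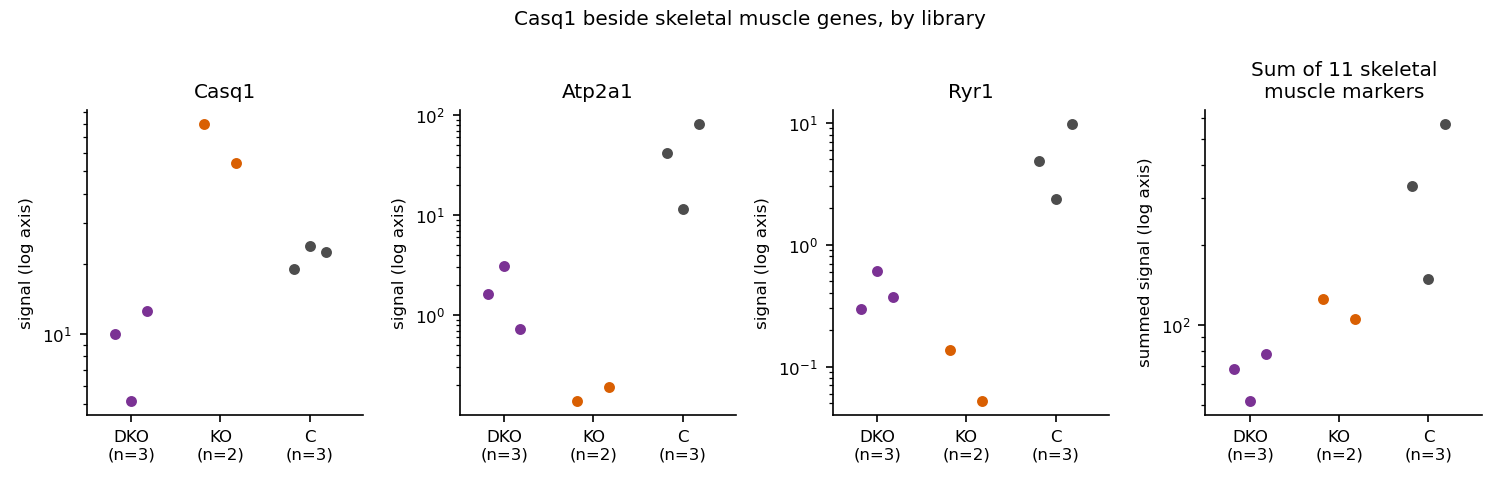
Signal of Casq1, Atp2a1 and Ryr1 and the summed signal of 11 skeletal muscle markers by library, on logarithmic axes, for DKO, KO and C. Casq1 is highest in the 2 KO libraries (79.6 and 54.3), where Atp2a1 (0.138 and 0.191) and Ryr1 (0.138 and 0.0520) are lowest.

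Jph2 (ENSMUSG00000017817, chromosome 2, 163336242 to 163397993) encodes junctophilin 2, the protein that spans the cleft between the surface membrane and the reticulum. It had a signal of 293.6, 203.9 and 392.6 in DKO, 404.0 and 553.6 in KO and 273.2, 338.5 and 346.3 in C. Both KO libraries were above all others, though KO replicate 1 only slightly exceeded DKO replicate 3. The log2 fold change was 0.57 ± 0.26 for KO versus C, -0.15 ± 0.24 for DKO versus C and -0.72 ± 0.26 for DKO versus KO (SE, limma adjusted p = 0.174, 0.877 and 0.0984). The ratio of Jph2 to Ryr2, the channel it is placed beside, was tighter: 0.753, 0.702 and 0.794 in DKO, 1.22 and 1.27 in KO and 0.681, 0.696 and 0.707 in C. Both KO libraries lay well above the other 6, and DKO and C overlapped. How often ratios of other gene pairs lie apart like this was not computed. The same exact two-sided permutation test, which doubles the smaller tail, gave p = 0.2 for KO versus C, the smallest it can give.

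Slc8a1 (ENSMUSG00000054640, chromosome 17, 81373105 to 81738377) encodes NCX1, the exchanger that expels calcium across the surface membrane. Its signal was 93.7, 68.2 and 103.3 in DKO, 124.3 and 125.4 in KO and 82.3, 86.5 and 85.4 in C. The KO libraries agreed closely and lay above all others, the C libraries agreed closely too, and DKO spread across C. The log2 fold change was 0.55 ± 0.18 for KO versus C (SE, unadjusted p = 0.0106, limma adjusted p = 0.0636), 0.04 ± 0.16 for DKO versus C (limma adjusted p = 0.958) and -0.51 ± 0.18 for DKO versus KO (unadjusted p = 0.0158, limma adjusted p = 0.0912).

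Camk2d (ENSMUSG00000053819, chromosome 3, 126596302 to 126846326) encodes the delta chain of CaMKII, which phosphorylates phospholamban and the release channel. Camk2d had a signal of 47.0, 43.2 and 60.8 in DKO, 94.7 and 82.8 in KO and 42.3, 51.4 and 51.9 in C. Both KO libraries were above all others, and DKO and C overlapped. It was 1.81-fold higher in KO than in C, a log2 fold change of 0.86 ± 0.18 (SE, limma adjusted p = 0.00975), and the value for DKO versus KO was -0.82 ± 0.18 (SE, limma adjusted p = 0.0145), 1.76-fold lower in DKO. For DKO versus C it was 0.04 ± 0.16 (SE, limma adjusted p = 0.957). The KO versus C call ended without KO replicate 1 (limma adjusted p = 0.0886), KO replicate 3 (0.0575) or C replicate 1 (0.0511), and the DKO versus KO call ended without KO replicate 1 (0.117) or KO replicate 3 (0.0806), or with only those groups in the model (0.0574).

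Read as a set in KO versus C, 2 of the 10 genes were higher (Casq1 and Camk2d) and none was lower, where 6.9% of all 13544 tested genes were higher and 7.01% lower. At an unadjusted limma p under 0.05, 3 of the 10 passed, against 29.1% of all genes, the third being Slc8a1. In 7 of the 10 the KO and C libraries did not overlap, 5 higher (Casq1, Camk2d, Slc8a1, Jph2 and Casq2) and 2 lower (Pln and Trdn), against 54.3% of all genes. A share of 3 in 10 is near that of the whole table and is no result about the set. The median log2 fold change of the 10 was 0.25, beside 0.01 for all tested genes. For the 8 without Casq1 and Camk2d it was -0.05, with 4 positive and 4 negative values. Without DKO replicate 2, which enters only through the shared estimate of spread, limma called 5 of the 10 higher. Slc8a1 (limma adjusted p = 0.00638), Casq2 (0.0336) and Jph2 (0.0499) were called in addition, and Trdn was lower (0.0436). In that setting 1447 of all 13544 tested genes were higher and 1519 lower.

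In DKO versus C, none of the 10 was higher or lower at an adjusted p under 0.05 in limma, where 0.0738% of all tested genes were higher and 0.0812% lower. Casq1 was the one gene at an unadjusted p under 0.05, against 8.5% of all genes, and the one gene whose groups did not overlap, against 13.8%. DESeq2 called 1 of the 10, Casq1, and edgeR none. The 9 others had log2 fold changes of -1.16 to 0.04, with limma adjusted p-values of 0.699 to 0.958. The median of the 10 was -0.16, beside 0.01 for all tested genes.

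In DKO versus KO, none of the 10 was higher and 2 were lower (Casq1 and Camk2d), where 6.08% of all tested genes were higher and 5.73% lower. At an unadjusted limma p under 0.05, 5 of the 10 passed, all lower in DKO (Casq1, Camk2d, Slc8a1, Jph2 and Casq2), against 28.9% of all genes in either direction. The same 5 genes did not overlap between DKO and KO, against 41.5% of all genes. The median of the 10 was -0.42, beside 0.01 for all tested genes. For the 8 without Casq1 and Camk2d it was -0.27. Without DKO replicate 3, limma called all 5 of these non-overlapping genes lower, with adjusted p-values of 0.0283 for Jph2, 0.0419 for Slc8a1 and 0.0453 for Casq2. In that setting 797 of all 13544 tested genes were lower. The comparisons with C and the one with KO share their libraries, so they are not independent of each other.

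Collagen genes of fibroblasts had the direction of Casq1 and Camk2d in both comparisons with KO. Of the 8 fibroblast markers, 3 (Col1a1, Col1a2 and Col3a1) were higher in KO than in C and none was lower, against 6.9% and 7.01% of all tested genes, and the same 3 were lower in DKO than in KO and none higher, against 5.73% and 6.08%. Col1a1 averaged 98.5 in DKO, 243.7 in KO and 63.5 in C (limma adjusted p = 0.00199 for KO versus C and 0.0114 for DKO versus KO), and no marker of the list passed in DKO versus C. The summed signal of the 8 markers was 537.8 to 1220.5 in DKO, 1137 and 1473 in KO and 512.3 to 767.2 in C. DKO thus overlapped both KO and C. Fibroblast markers such as Dcn and Pdgfra did not pass in any comparison. In KO versus C, 4 of the 8 were higher and 2 (Pdgfra and Dpt) lower without overlap, against 54.3% of all genes in either direction. Pdgfra had 17.5 and 16.2 in KO and 19.0 to 23.7 in C. Dpt had 52.4 and 40.4 in KO and 57.7 to 68.8 in C. The part of fibroblast RNA in the values of Casq1 and Camk2d was not tested.

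**Figure D4:**
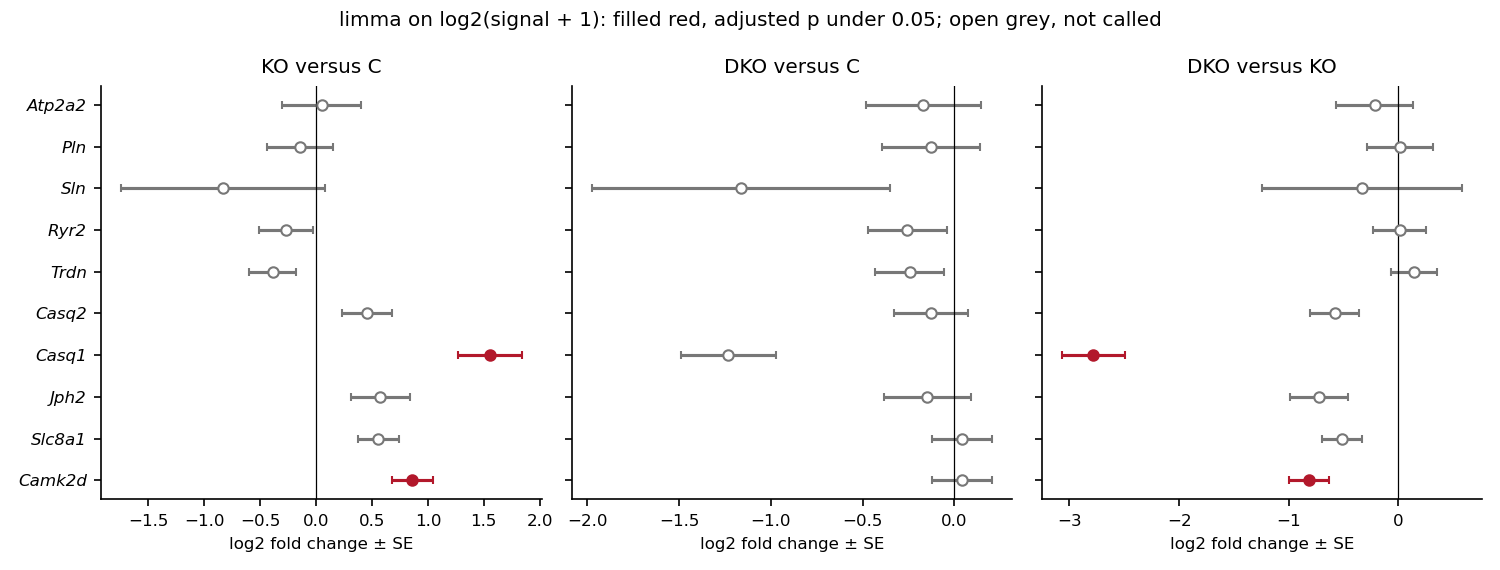
log2 fold change ± SE of the 10 genes in limma for KO versus C, DKO versus C and DKO versus KO; filled red points have an adjusted p under 0.05. Casq1 (1.55 and -2.78) and Camk2d (0.86 and -0.82) are filled in KO versus C and in DKO versus KO, and no point is filled in DKO versus C.

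The size of these differences depended on the scaling of the libraries. The deposited scaling factors were 0.705 to 1.06 in DKO, 1.36 and 1.37 in KO and 0.925 to 0.964 in C. With each library scaled by its total reads instead, an alternative added after the data were seen, the median log2 fold change of all tested genes moved to 0.49 in KO versus C and to -0.58 in DKO versus KO, and stood at -0.09 in DKO versus C. On that scale Casq1 had 2.08, Camk2d 1.40, Jph2 1.11, Slc8a1 1.09 and Casq2 0.997 in KO versus C. All 5 were called (limma adjusted p up to 0.0318), where 4604 of all 13544 tested genes were called higher. All 5 were above the median of all genes by more than 0.5. Atp2a2 (0.59) lay just above that median, and Pln (0.40), Ryr2 (0.27) and Trdn (0.15) lay below it with the sign turned. In DKO versus KO the same 5 genes were called lower, with log2 fold changes of -3.41 to -1.17. On that scale 5995 of all 13544 tested genes were called lower there. Pln (-0.65), Ryr2 (-0.65) and Trdn (-0.51) turned.

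A second scale was the mean log2 level of the 9 ventricular cardiomyocyte markers in the same library. Of these markers, 6 were lower and 3 (Actc1, Ttn and Irx4) higher in KO than in C without overlap, against 54.3% of all genes without overlap in either direction; Tnni3 alone passed as lower and Irx4 alone as higher. On that relative scale, Casq1 was 1.95 higher in KO than in C on the log2 scale, Camk2d 1.26, Jph2 0.97, Slc8a1 0.96 and Casq2 0.86, each without overlap. Atp2a2 was 0.45 higher and Pln 0.26 higher without overlap, while Ryr2 at 0.13 and Trdn at 0.01 overlapped. Between DKO and C, Casq1 was -0.97 and Slc8a1 and Camk2d 0.30 and 0.31 on this scale without overlap, and the other 7 genes overlapped. In each comparison this scale shifts the difference of every gene by the same amount. In KO versus C, Casq2 moved from 0.46 to 0.86 and Pln from -0.14 to 0.26. The share of all genes without overlap was not computed on this scale. These are descriptions with no test. The choice of scale thus sets the direction for Pln, Ryr2 and Trdn in KO versus C.

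**Figure D5:**
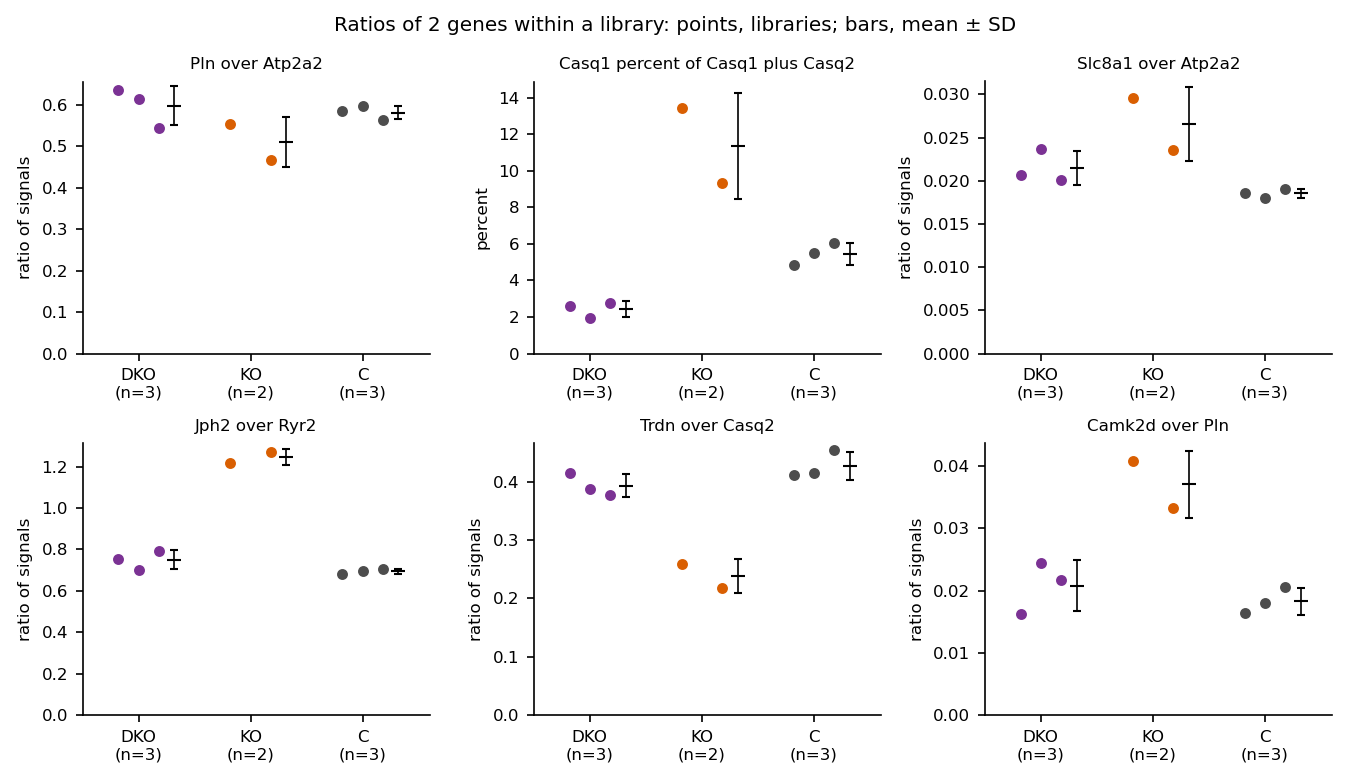
Ratios of 2 genes within a library (points) with mean ± SD (bars) for DKO, KO and C; the panel of Casq1 gives its percentage of Casq1 plus Casq2, and all axes start at 0. Jph2 over Ryr2 is 1.22 and 1.27 in KO and 0.681 to 0.794 in the other 6 libraries, and Trdn over Casq2 is 0.259 and 0.217 in KO and 0.377 to 0.454 in the others.

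Several of the 10 genes followed each other across the 8 libraries. Casq2 followed Slc8a1 (Pearson r = 0.95 of log2(signal + 1)), Jph2 (0.92), Casq1 (0.86) and Camk2d (0.84), and Atp2a2 followed Pln (0.87), Ryr2 (0.82) and Jph2 (0.81). Camk2d had an r of 0.03 with Pln and 0.01 with Ryr2, and Sln had no r above 0.40 with any of the others. These correlations span 3 groups and a library, DKO replicate 2, that was low for nearly all of them, and the points share libraries and scaling, so they describe these libraries only. Among 6627 candidate genes outside the 10, the most similar patterns were those of Zdhhc6, Slc38a2 and Ccser2 for Casq1 (r of 0.97 to 0.98), of Bhlhe41, Nppa and Nudt18 for Camk2d (0.98 each), of Cdh2, Slc16a1 and Hspb8 for Slc8a1 (0.99 each) and of Immt, Akr1b10 and Slc25a13 for Atp2a2 (0.99 each). Nppa, the atrial natriuretic peptide gene, averaged 289.3 in DKO, 2023 in KO and 298.7 in C.

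The wider machinery was read from 58 other calcium genes, of which 51 were in the table and tested. In KO versus C 2 of the 51 were higher and 6 lower, in DKO versus C none was higher and 2 (Atp2a1 and Ryr1) were lower (6 at an unadjusted limma p under 0.05), and in DKO versus KO 3 were higher and 4 lower. Of all tested genes, 6.9% were higher and 7.01% lower in KO versus C, 0.0738% and 0.0812% in DKO versus C (8.5% at an unadjusted p under 0.05), and 6.08% and 5.73% in DKO versus KO, so the counts in DKO versus KO are near those of the whole table. Their median log2 fold changes were 0.13, -0.05 and -0.10 in the 3 comparisons in that order, beside 0.01 in each for all tested genes. By role, KO versus C gave 0 higher and 2 lower of 5 pump genes, 0 and 1 of 10 genes of release channels and their partners, 0 and 1 of 6 genes of the reticulum lumen and membrane, 0 and 0 of 4 genes of junctions and T-tubules, 0 and 1 of 11 genes of surface entry and exit, and 2 and 1 of 15 kinases, phosphatases and anchors. Beside the 6.9% higher and 7.01% lower of all tested genes, single genes out of 4 to 15 are no result about a role.

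Among the partners of the 10, Hrc encodes the histidine-rich calcium-binding protein, which sits in the reticulum lumen with calsequestrin and triadin. It had a signal of 588.0, 413.8 and 698.2 in DKO, 246.6 and 328.7 in KO and 680.2, 710.0 and 657.8 in C. Both KO libraries were below all others; the log2 fold change was -1.26 ± 0.24 for KO versus C (SE, limma adjusted p = 0.00622) and 0.96 ± 0.24 for DKO versus KO (SE, limma adjusted p = 0.0253). Hrc was thus lower in KO, where Casq1, also luminal, was higher and Casq2 had its highest values. Jph1, the skeletal paralog of Jph2, was lower in DKO than in KO, at a mean of 4.63 in DKO and 9.32 in KO (limma adjusted p = 0.0232), as was the surface calcium pump Atp2b1, at 13.7 in DKO and 22.9 in KO (limma adjusted p = 0.0448).

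Of the kinases and their anchors, Prkar1a, a regulatory subunit of protein kinase A, which also phosphorylates phospholamban, had a signal of 182.4, 149.2 and 202.4 in DKO, 413.4 and 467.5 in KO and 201.0, 196.4 and 166.7 in C. Both KO libraries were above all others, with a log2 fold change of 1.23 ± 0.19 for KO versus C (SE, limma adjusted p = 0.00207) and -1.31 ± 0.19 for DKO versus KO (SE, limma adjusted p = 0.00174). Ppp1r3a, which targets protein phosphatase 1 to glycogen and the reticulum, averaged 16.7 in DKO, 48.2 in KO and 20.5 in C, and passed in KO versus C (limma adjusted p = 0.0256) and in DKO versus KO (0.0110). Ppp1r1a, which encodes an inhibitor of protein phosphatase 1, was lower in KO, with a mean of 0.816 in KO and 2.68 in C (limma adjusted p = 0.0149). Camk2b, the beta chain of the same kinase as Camk2d, went the other way from Camk2d, at a mean of 12.1 in DKO, 6.03 in KO and 11.9 in C (limma adjusted p = 0.0115 for KO versus C and 0.0127 for DKO versus KO). Cacna1s, the skeletal L-type channel subunit, averaged 12.5 in DKO, 4.37 in KO and 14.1 in C (limma adjusted p = 0.00330 for KO versus C and 0.00807 for DKO versus KO).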

How the data were processed

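Poly(A) RNA of 8 ventricular libraries was sequenced on a NovaSeq, per the labels' protocols. RSEM 1.3.1, cutadapt, limma and GRCm38 are listed in the submitters' processing notes, with no role or order. The deposited signal is, from its values, (reads + 0.5) in proportion to a scaled library size, on the scale of CPM. Dividing by each column's step gave whole reads in 100% of cases (tolerance 0.001 reads). Scaling factors were 0.705 to 1.06 in DKO, 1.36 and 1.37 in KO and 0.925 to 0.964 in C. Depth was 15028176 to 21202385 reads; floors and read numbers cover counting error only.

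From these values, log2(signal + 1) was tested with limma 3.58.1 in R 4.3.3 (intensity trend, 3 group means over 8 libraries, Benjamini-Hochberg, threshold 0.05) for the 13544 genes with a signal of at least 1 in at least 2 libraries. This scale understates changes of low genes. Called means an adjusted p under the threshold, and folds are antilogs (base 2) of these changes. edgeR 4.0.16 and DESeq2 1.42.0 on recovered reads, other pseudocounts, filters and scalings, a replicate block and leaving out each library were alternatives; the procedure was tested on simulated data. The 10 genes and all lists were chosen with earlier results of these data known. Named genes are the 10, other calcium genes past the threshold, Ryr1 and Atp2a1, the 3 genes most like each of the 10 (some not printed), and markers beside the results they touch. Coordinates, exon overlaps and lengths are from GENCODE M21 on GRCm38, promoters from RefSeq (GRCm38.p6). Lists of smooth muscle, endothelium and macrophage markers gave no call in KO versus C (of 4, 6 and 7 genes, where 6.9% of all tested genes were higher and 7.01% lower). All 7 macrophage markers had a positive change there, with a lowest limma adjusted p of 0.0510. For 6 of the 7 the KO libraries were higher without overlap, against 54.3% of all genes in either direction. A KO replicate 2 was not analysed here. Replicates differed by more than counting noise (chi-square per gene 13.7 to 256.1).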

Additional observations from a re-analysis of the deposited data

How the results depend on the processing

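The number of the 10 genes called higher in KO versus C (2) was 6 with quantile normalisation, 5 with library-total scaling (chosen after seeing the data), 5 with only those groups in the model and 0 to 5 when a library was left out. The number called lower there (0) was 1 with only those groups and 0 to 1 without a library. In DKO versus C the number lower (0) was 1 in DESeq2 and 0 to 1 without a library. In DKO versus KO the number lower (2) was 5 with quantile normalisation, 5 with library-total scaling, 1 with only those groups and 1 to 5 without a library. The calls over all 13544 tested genes moved as well. In KO versus C, 938 were higher with quantile normalisation, 4604 with library-total scaling and 1802 with only those groups (1804 lower). Leaving out a C or DKO library gave 476 to 1447 higher, beside 934 with none left out. In DKO versus KO, 861 were lower with quantile normalisation, 5995 with library-total scaling and 379 with only those groups. DESeq2 called 36 lower in DKO versus C. Libraries that share a replicate number did not deviate together in every pair (correlations of -0.27 to 0.22). The deviations were taken from group means of 2 or 3 libraries, so these correlations cannot decide whether the numbers pair the libraries. A model with the replicate block gave the same counts of the 10. These were 2 higher and 0 lower in KO versus C, 0 in DKO versus C and 2 lower in DKO versus KO. That model gave a log2 fold change of -0.0569 for Atp2a2 in KO versus C. Quantile normalisation turned the sign of the log2 fold change of Pln (0.495) and Ryr2 (0.0545) in KO versus C, of Atp2a2 (0.0795) and Pln (0.141) in DKO versus C, and of Pln (-0.354) and Ryr2 (-0.197) in DKO versus KO. Removing the trend with transcript length turned Atp2a2 (-0.0667) in KO versus C, Slc8a1 (-0.000495) and Camk2d (-0.0105) in DKO versus C, and Pln (-0.0137) in DKO versus KO. Library-total scaling turned Pln (0.397), Ryr2 (0.272) and Trdn (0.150) in KO versus C, Slc8a1 (-0.0788) and Camk2d (-0.0758) in DKO versus C, and Pln (-0.647), Ryr2 (-0.648) and Trdn (-0.512) in DKO versus KO, with shifts of the median of all genes of 0.49, -0.09 and -0.58. Leaving out a library turned the sign of uncalled values: in KO versus C it gave -0.122 to 0.220 for Atp2a2 and -1.87 to 0.248 for Sln. In DKO versus C it gave -0.291 to 0.0856 for Casq2, -0.339 to 0.0803 for Atp2a2, -0.254 to 0.0973 for Pln, -0.375 to 0.0961 for Jph2, -0.0826 to 0.214 for Slc8a1 and -0.100 to 0.142 for Camk2d. In DKO versus KO it gave -0.389 to 0.0314 for Atp2a2, -0.110 to 0.241 for Pln, -1.37 to 0.704 for Sln and -0.184 to 0.209 for Ryr2. The cause of these changes was not tested. In settings that keep all libraries, 290 fold changes of the 10 genes kept their direction and side of the threshold, 20 passed it only there, 1 no longer passed and 19 turned. The 2 KO libraries and reads near the floor (Sln) limit what can be told.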
